A study of Mus musculus with 4 samples.

Results

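The genes described here encode proteins that decide which exons of a pre-mRNA are joined: the SR proteins and their arginine/serine-rich relatives, the CLK kinases that phosphorylate them, the hnRNP proteins and Ptbp1, and the Luc7l, TIA1 and MBNL proteins. They were taken from the count table by symbol, as every gene beginning Srsf plus a digit, Hnrnp or Luc7l and 15 named genes, with at least 10 counts in 2 or more libraries. Among the 53465 genes of the count table, 51 had such a symbol and 48 passed the count minimum, and all 48 were among the 12320 genes tested. Tia1 and Pnisr had been put in the group because they were lower in extravasated cells, so their values are given as a description with no test. The other members were also chosen with results of these data known. The 3 genes left out were Srsf12 and Hnrnpa1l2-ps, with 0 counts in all libraries, and Hnrnpa1l2-ps2, with 4 and 0 counts in extravasated and 0 and 2 counts in not extravasated libraries. The member nearest the minimum was Clk4, with 120 and 132 counts in extravasated and 524 and 517 counts in not extravasated libraries.

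The cells were B16-F10, a pigmented mouse melanoma line, carrying a fluorescent label and infused into zebrafish. In 2 libraries the cells had extravasated, that is left the vessels, and in the other 2 they had been infused and had not, which the series' design names as controls. All 4 were made from cells recovered from the fish and grown in IMDM with 10% FBS, and polyA RNA was sequenced with a stranded kit. The labels' growth text speaks of extravasated clusters for all 4 libraries, and groups were therefore read from the separate extravasation entry. Both extravasated libraries share 1 number in their titles and both others share another, and any effect of what it marks cannot be told apart from extravasation. Separate cultures are not stated, so a p-value covers the spread between these libraries, possibly technical. Libraries held 13256522 and 19674733 counts in the extravasated group and 11705904 and 16430477 counts in the other. Levels are given as CPM, which is counts scaled to a common library total after that total was adjusted by a TMM normalization factor. All 9 pigment cell markers checked were present. Their summed levels were 30896 to 31862 CPM in extravasated and 24252 to 29594 CPM in not extravasated libraries. Markers of fibroblasts, leukocytes, endothelium and epithelium summed to at most 15.3 CPM each in any library. Of 6 markers each, 2, 3, 4 and 4 in that order had 0 counts in all 4 libraries. Among those detected, the leukocyte marker Cd68 stood at 3.63 to 4.69 CPM. The endothelial marker Vwf stood at 14.3 and 14.8 CPM in extravasated and 8.68 and 3.41 CPM in not extravasated libraries. The 6 endothelial markers, of which 1 reached 10 counts in 2 libraries, moved with the group, at 15.3 and 15.3 CPM in extravasated and 8.77 and 3.82 CPM in not extravasated libraries, and their part in the results was not tested.

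SR proteins bind purine-rich and other exonic sequences through RNA recognition motifs and draw the spliceosome to nearby splice sites through their arginine/serine-rich domains. Many hnRNP proteins oppose them by binding exonic or intronic silencers, and the balance of both classes sets the choice of alternative exons. Many genes of both classes hold a conserved exon or intron with an early stop codon, and protein bound to the gene's own pre-mRNA can direct it to nonsense-mediated decay. The counts used here are per gene and do not separate such isoforms.

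Coding sequence from 4 members shows a property for which the results below are also given with a correction, the GC content of the transcript. Each is the middle 120 bases of the coding sequence of the GENCODE M21 principal transcript (GRCm38), 5′ to 3′, with G and C in capitals. Tia1 (chr6:86404219-86433405, plus strand, coding bases 520 to 639) and Tial1 (chr7:128439777-128461717, minus strand, 529 to 648) are paralogs of like composition. Clk1 (chr1:58410189-58424066, minus strand, 664 to 783) was among the lowest members and Srsf9 (chr5:115327177-115333080, plus strand, 274 to 393) among the highest.
Tia1: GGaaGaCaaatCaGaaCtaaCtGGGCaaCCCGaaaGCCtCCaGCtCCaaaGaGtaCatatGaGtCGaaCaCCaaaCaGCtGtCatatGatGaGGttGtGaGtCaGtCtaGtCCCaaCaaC
Tial1: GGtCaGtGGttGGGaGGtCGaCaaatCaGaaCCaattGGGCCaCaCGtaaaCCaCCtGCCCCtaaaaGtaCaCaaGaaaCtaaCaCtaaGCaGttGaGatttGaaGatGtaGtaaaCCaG
Clk1: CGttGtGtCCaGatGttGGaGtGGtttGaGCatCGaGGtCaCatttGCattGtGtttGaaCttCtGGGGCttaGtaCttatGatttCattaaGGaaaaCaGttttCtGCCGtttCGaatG
Srsf9: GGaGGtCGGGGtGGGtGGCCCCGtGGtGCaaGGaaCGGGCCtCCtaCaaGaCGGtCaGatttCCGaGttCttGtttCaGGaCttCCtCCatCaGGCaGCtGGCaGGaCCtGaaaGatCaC
G and C made up 46.7% of the window of Tia1, 45.0% of that of Tial1, 41.7% of that of Clk1 and 59.2% of that of Srsf9. Their whole transcripts held 41.2%, 41.3%, 40.9% and 56.2% G and C in the same order.

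Most members had lower levels in extravasated cells. By edgeR's quasi-likelihood test, adjusted over all genes tested, 31 of the 46 members other than Tia1 and Pnisr were lower, against 25.9% of all genes, and 1 of 46 was higher, against 19.1% of all genes. Tia1 and Pnisr, chosen for their falls, are left out of these counts. The median log2 fold change of these 46 members was -0.94, and that of all genes tested was -0.02. The values in the rest of this paragraph are over all 48 members and include Tia1 and Pnisr. The log2 fold change was negative in 41 members, and 23 were lower by 1 or more on the log2 scale. No share of all genes is given for these counts, so they only describe the members. In 36 members both extravasated libraries lay below both others, as in 39.0% of all genes tested, and in 4 members both lay above, as in 37.3% of all genes. Together the 48 genes took 1.26% and 1.003% of all counts in the extravasated libraries, against 1.75% and 1.87% in the others. In bulk RNA, fewer cells of a type and less RNA per cell cannot be told apart.

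**Figure D1:**
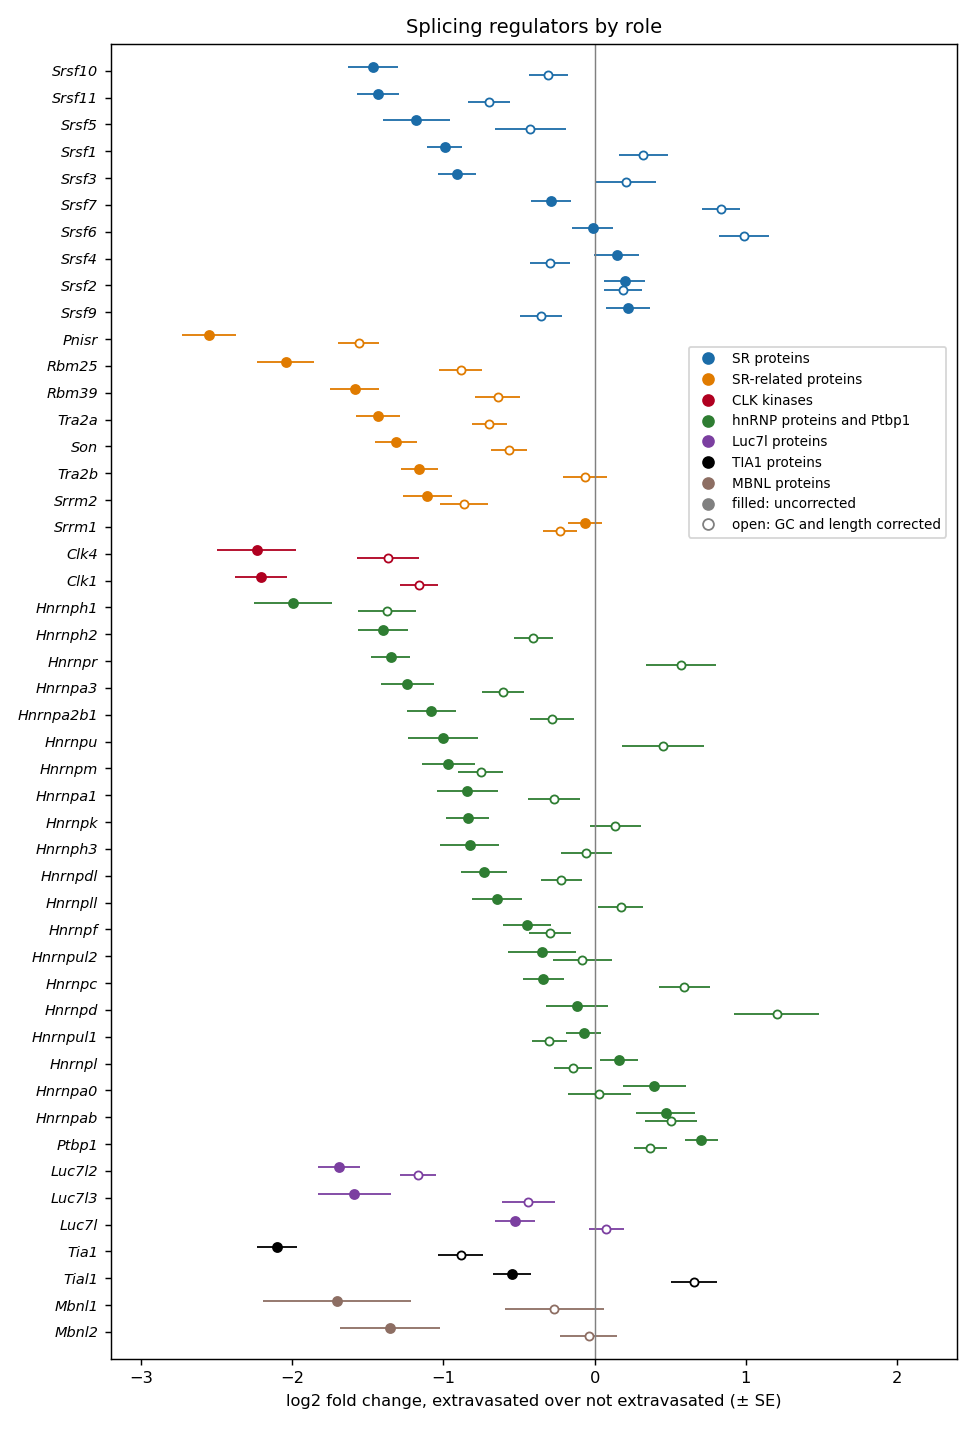
Log2 fold change (x axis, extravasated over not extravasated, with 1 SE) of the 48 members, grouped by role. Filled points are uncorrected and open points are corrected for transcript GC content and length. Most filled points lie left of 0 (median -0.98), and most open points lie nearer to 0 (median -0.27). Both medians count Tia1 and Pnisr, which were chosen for their falls. Without these genes the medians were -0.94 and -0.25.

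The call rate moved with transcript composition, and each result is therefore given with a correction for it. Members had a median transcript GC content of 44.0% (39.7 to 56.8%), against 50.4% for all nuclear coding genes tested. Fold change and transcript GC content were related by a Spearman rho of 0.534 across the 48 members and of 0.743 across 11126 nuclear coding genes, which are descriptions over genes measured in the same 4 libraries. Of the 24 members of lowest GC content 22 are neither Tia1 nor Pnisr, and of these 18 were lower and 0 higher, with a median log2 fold change of -1.17. Of the 24 of highest GC content 13 were lower and 1 higher, with a median of -0.59. No share of all genes within these GC ranges is given, before or after correction, so members were not compared with genes of like composition. With each library's trend on GC content and length removed, 12 of the 46 members were lower, against 5.8% of all genes. In the same fit 4 were higher, against 8.24%. The corrected median was -0.25 for the 46 members and 0.04 for all genes. Corrected counts were 4 lower and 4 higher in the 22 members of lowest GC content and 8 lower and 0 higher in the 24 of highest. The correction takes away any difference that follows GC content or length, whatever its source, which was not tested.

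The 12 members that fell in both fits were Clk1, Clk4, Hnrnpa3, Hnrnph1, Hnrnpm, Luc7l2, Rbm25, Rbm39, Son, Srrm2, Srsf11 and Tra2a. With the correction based on the longest coding transcripts, 11 of 46 were lower, against 5.46% of all genes, and 5 were higher, against 8.08%: Hnrnpa3 was not called and its value was 0.10, and Ptbp1 was called higher. Leaving out libraries changed the corrected counts more. Without extravasated library 1 the corrected fit called 2 of 46 lower, Hnrnph1 and Luc7l2, against 0.488% of all genes. Without extravasated library 2 the corrected fit called no member in either direction, and almost no gene at all. Without extravasated library 1 no member was called higher either, in a fit that called few genes. All 12 had a negative corrected value with any 1 library left out. They were chosen for falling in these same libraries, so a kept sign is a description and no independent support. Without not extravasated library 1, 17 of 46 were lower and 6 higher after correction, against 11.9% and 16% of all genes. Without not extravasated library 2, 12 were lower and 9 higher, against 7.61% and 11%.

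**Figure D2:**
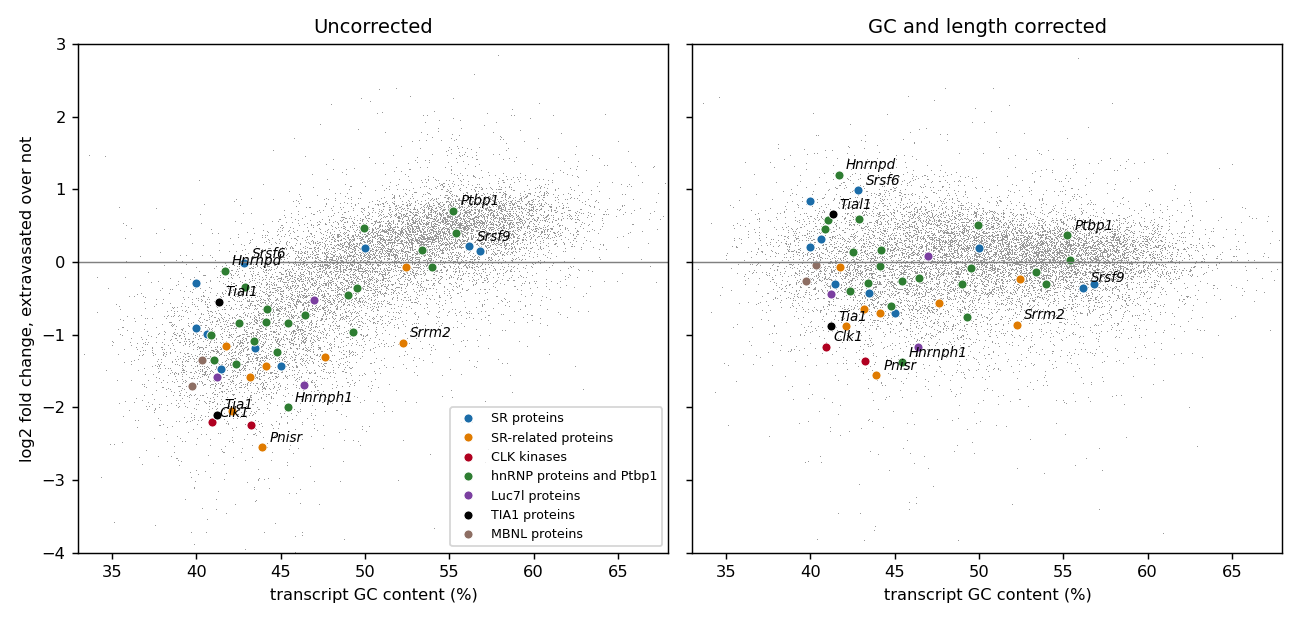
Log2 fold change (y axis) against the GC content of the principal transcript (x axis, %) without (left) and with (right) the GC and length correction. Grey dots are all genes with a transcript, apart from 39 (left) and 32 (right) beyond the axes, and coloured points are the members by role. On the left the members follow the slope of all genes (rho 0.534). The correction takes that slope away by design, and on the right rho was -0.174 for members and 0.012 for all nuclear coding genes.

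Among SR proteins, 5 of 10 fell and 0 rose (median log2 fold change -0.60), against 25.9% and 19.1% of all genes. After correction 1 fell and 2 rose, with a median of -0.06, against 5.8% and 8.24%. The largest fall was in Srsf10, a splicing repressor when dephosphorylated. It stood at 48.8 and 59.6 CPM in extravasated and 165.5 and 134.4 CPM in not extravasated libraries, which did not overlap. Its log2 fold change was -1.47 ± 0.16 (SE, n = 2 each; edgeR adjusted p = 0.00101), and the call ended after correction (-0.31, adjusted p = 0.146). Srsf11, an arginine/serine-rich protein that binds other splicing factors, stood at 94.6 and 102.6 CPM in extravasated and 289.2 and 243.8 CPM in not extravasated libraries. The groups were apart, and its log2 fold change of -1.43 ± 0.14 (edgeR adjusted p = 0.000737) was -0.70 after correction (adjusted p = 0.0197). Srsf5 (log2 fold change -1.18), Srsf1 (-0.99), the founding SR protein, and Srsf3 (-0.91) fell as well. After correction their values were -0.43, 0.32 and 0.21, and none of the 3 was called.

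Srsf6 and Srsf7 were not called before correction and rose after it. Srsf6 stood at 235.3 and 210.1 CPM in extravasated and 205.4 and 243.7 CPM in not extravasated libraries, which overlapped, with a log2 fold change of -0.01 (edgeR adjusted p = 0.950). Srsf7 stood at 108.9 and 114.5 CPM in extravasated and 146.4 and 126.1 CPM in not extravasated libraries, lower in both, with a log2 fold change of -0.29 (edgeR adjusted p = 0.112). The corrected log2 fold changes were 0.99 ± 0.16 (edgeR adjusted p = 0.0118) for Srsf6 and 0.84 ± 0.13 (edgeR adjusted p = 0.00915) for Srsf7. Both have transcripts of low GC content, 42.8% and 40.0%. Srsf9, the highest SR protein by fold change, stood at 70.6 and 66.1 CPM in extravasated and 53.5 and 63.7 CPM in not extravasated libraries. Its groups did not overlap, and it passed neither before correction (log2 fold change 0.22, edgeR adjusted p = 0.246) nor after it (-0.35, adjusted p = 0.127). Srsf2, which binds exonic enhancers, and Srsf4 were not called in either fit, with 0.20 and 0.15 before and 0.19 and -0.30 after correction.

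The SR-related proteins held the lowest member. Pnisr, which encodes an arginine/serine-rich protein and lies at chr4:21847583-21876475 (ENSMUSG00000028248.15), stood at 22.0 and 19.9 CPM in extravasated and 139.5 and 104.9 CPM in not extravasated libraries. Both extravasated values were below both others, with a log2 fold change of -2.55 ± 0.18 (SE, n = 2 each), and of -1.56 ± 0.13 after correction, for which no test is given. Of the other 7 SR-related genes 6 fell and 0 rose with a median of -1.31, against 25.9% and 19.1% of all genes. After correction 5 fell and 0 rose with a median of -0.64, against 5.8% and 8.24%.

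Rbm25, which acts with the U1 snRNP at splice donor sites, stood at 63.5 and 76.2 CPM in extravasated and 334.9 and 241.7 CPM in not extravasated libraries. With no overlap it fell by 2.04 ± 0.19 on the log2 scale (edgeR adjusted p = 0.00077), and the corrected value was -0.89 (adjusted p = 0.0105). Rbm39, a relative of U2AF2 that also acts as a coactivator of transcription, stood at 75.9 and 93.1 CPM in extravasated and 281.2 and 226.9 CPM in not extravasated libraries. Both extravasated values were the lower ones, the log2 fold change was -1.59 ± 0.16 (edgeR adjusted p = 0.000858), and -0.64 after correction (adjusted p = 0.0308). Tra2a, a sequence-specific activator of exon inclusion, stood at 92.2 and 75.8 CPM in extravasated and 238.0 and 215.5 CPM in not extravasated libraries. The groups did not overlap, and Tra2a fell in both fits, with log2 fold changes of -1.43 ± 0.14 (edgeR adjusted p = 0.000823) and -0.70 (adjusted p = 0.0127). Its paralog Tra2b had -1.16 (edgeR adjusted p = 0.000889) before correction and -0.06 (adjusted p = 0.792) after it.

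Son and Srrm2 encode the large proteins that form the core of nuclear speckles, where splicing factors are stored. Son stood at 189.4 and 153.0 CPM in extravasated and 431.5 and 418.6 CPM in not extravasated libraries. Again the groups were apart: the log2 fold change was -1.31 ± 0.14 (edgeR adjusted p = 0.00087), and -0.57 after correction (adjusted p = 0.0227). Srrm2 stood at 470.3 and 339.9 CPM in extravasated and 876.7 and 868.6 CPM in not extravasated libraries. Lower in both extravasated libraries, it fell by 1.11 ± 0.16 on the log2 scale (edgeR adjusted p = 0.00243), and with a transcript GC content of 52.3% its corrected value stayed near, at -0.86 (adjusted p = 0.0157). Srrm1, a coactivator that bridges SR proteins and the spliceosome, overlapped between groups, with 376.5 and 411.9 CPM in extravasated and 410.0 and 413.3 CPM in not extravasated libraries. It had a log2 fold change of -0.06 (edgeR adjusted p = 0.685), and -0.23 after correction (adjusted p = 0.209).

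Clk1 and Clk4 encode kinases that phosphorylate SR proteins and release them from speckles. Clk1 stood at 17.9 and 20.4 CPM in extravasated and 98.5 and 78.8 CPM in not extravasated libraries. Clk4 stood at 9.09 and 6.95 CPM in extravasated and 45.5 and 29.9 CPM in not extravasated libraries. The groups were apart for both kinases. Clk1 fell 4.61-fold (log2 fold change -2.21 ± 0.17, edgeR adjusted p = 0.000719) and Clk4 fell 4.71-fold (-2.24 ± 0.26, adjusted p = 0.00121). After correction the log2 fold changes were -1.16 (edgeR adjusted p = 0.00432) and -1.36 (adjusted p = 0.00902).

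**Figure D3:**
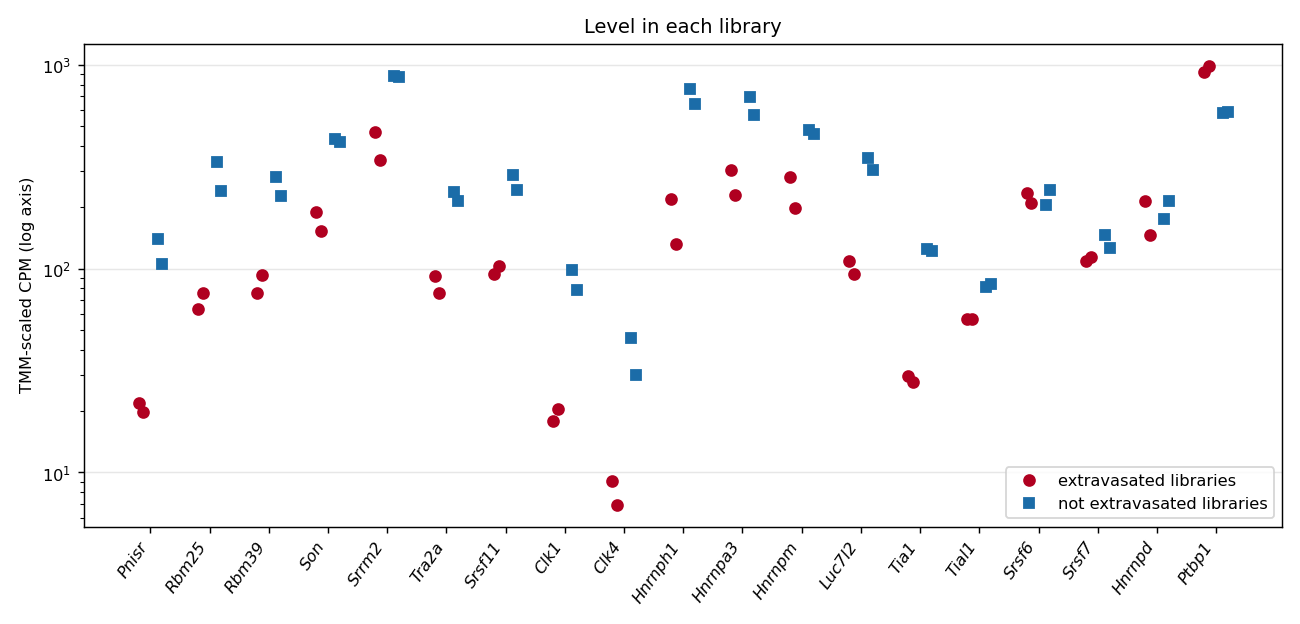
TMM-scaled CPM (y axis, log scale) in each library of Pnisr, Tia1 and the 12 members that fell in both fits, of the 4 called higher after correction and of Ptbp1. Circles are extravasated and squares not extravasated libraries: for Clk1 the circles sit at 17.9 and 20.4 CPM and the squares at 98.5 and 78.8 CPM, while for Srsf6 and Hnrnpd they overlap.

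Of 21 genes of hnRNP proteins and Ptbp1, 12 fell and 1 rose (median log2 fold change -0.73), against 25.9% and 19.1% of all genes. After correction 3 fell and 1 rose, with a median of -0.08, against 5.8% and 8.24%. Hnrnph1 (chr11:50376990-50386528), whose product binds runs of G, was the lowest. It stood at 219.9 and 131.6 CPM in extravasated and 757.3 and 644.7 CPM in not extravasated libraries. It fell 3.99-fold with no overlap (log2 fold change -1.997 ± 0.26, edgeR adjusted p = 0.00304), and the corrected log2 fold change was -1.38 ± 0.19 (adjusted p = 0.00798). Hnrnpa3 stood at 305.9 and 228.7 CPM in extravasated and 693.2 and 567.8 CPM in not extravasated libraries, with no overlap and a log2 fold change of -1.24 ± 0.17 (edgeR adjusted p = 0.00226). Its corrected value of -0.60 (adjusted p = 0.029) depended on the transcript used, as given above. Hnrnpm, which binds GU-rich sequence, stood at 283.2 and 198.2 CPM in extravasated and 481.3 and 460.4 CPM in not extravasated libraries. It was lower in both extravasated libraries and fell in both fits, with log2 fold changes of -0.97 ± 0.18 (edgeR adjusted p = 0.00535) and -0.75 (adjusted p = 0.019).

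Ptbp1 was the member that rose without correction. It encodes the polypyrimidine tract binding protein, which represses neuronal exons, and lies at chr10:79854427-79864771 (ENSMUSG00000006498.16). Its levels were 919 and 988 CPM in extravasated and 581.5 and 587.3 CPM in not extravasated libraries, with no overlap. The log2 fold change was 0.71 ± 0.11 (SE, n = 2 each; edgeR adjusted p = 0.00272), and 0.37 ± 0.11 after correction (adjusted p = 0.0624), where the call ended. Hnrnpab, Hnrnpa0 and Hnrnpl also had positive log2 fold changes, of 0.47, 0.40 and 0.16, and none of the 3 passed. With the title suffix as a term, or with no expression filter, Hnrnpab and Hnrnpa0 were called higher, and DESeq2 called Hnrnpab. Both were also called higher without not extravasated library 2 (0.59 and 0.55), and Hnrnpab without extravasated library 2 (0.76).

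Hnrnpd, which encodes AUF1, a binder of AU-rich elements in mRNA, overlapped between groups, with 214.3 and 145.8 CPM in extravasated and 175.3 and 215.4 CPM in not extravasated libraries. The value was -0.12 on the log2 scale (edgeR adjusted p = 0.666) and turned to 1.20 ± 0.28 after correction (adjusted p = 0.0441). The correction also moved Hnrnpr, whose annotated transcript of 21452 nucleotides was the longest of the members, by the largest amount: it was -1.35 before (edgeR adjusted p = 0.000737) and 0.57 after (adjusted p = 0.141). The further hnRNP genes that fell without correction were Hnrnph2 (-1.40), Hnrnpa2b1 (-1.08), Hnrnpu (-1.001), Hnrnpa1 (-0.84), Hnrnpk (-0.84), Hnrnph3 (-0.83), Hnrnpdl (-0.73) and Hnrnpll (-0.64). After correction these 8 lay between -0.40 (Hnrnph2) and 0.45 (Hnrnpu), and none was called. Hnrnpf, Hnrnpul2, Hnrnpc and Hnrnpul1 had log2 fold changes of -0.45, -0.35, -0.34 and -0.07 and passed in neither fit. With the title suffix as a term Hnrnpf, Hnrnpul2 and Hnrnpc were called lower.

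Luc7l proteins are relatives of yeast Luc7, a subunit of the U1 snRNP that recognises splice donor sites. Luc7l2 stood at 108.6 and 94.4 CPM in extravasated and 350.9 and 304.1 CPM in not extravasated libraries, with no overlap. It fell 3.23-fold (log2 fold change -1.69 ± 0.14, edgeR adjusted p = 0.000719), and the corrected log2 fold change was -1.17 ± 0.12 (adjusted p = 0.00404). The corrected size of Luc7l2 depended on the transcript used, and with the longest coding transcript it was -0.56 ± 0.12 (edgeR adjusted p = 0.026). Luc7l3 fell by 1.59 ± 0.24 on the log2 scale (edgeR adjusted p = 0.00432), and its corrected value was -0.44 (adjusted p = 0.130). Luc7l, the highest of the 3, stood at 67.2 and 58.9 CPM in extravasated and 90.9 and 90.9 CPM in not extravasated libraries. Both extravasated values were lower, and the log2 fold change of -0.53 ± 0.13 (edgeR adjusted p = 0.0154) was not called without extravasated library 1 (-0.53) or 2 (-0.40), nor after correction (0.08, adjusted p = 0.678).

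Tia1 and Tial1 encode related proteins that bind U-rich sequence behind weak splice donor sites and also act in stress granules. Tia1 (ENSMUSG00000071337.11) stood at 29.9 and 27.8 CPM in extravasated and 124.8 and 122.3 CPM in not extravasated libraries. The groups were far apart, with a log2 fold change of -2.10 ± 0.13 (SE, n = 2 each) and of -0.89 ± 0.15 after correction, given with no test. Tial1 stood at 56.7 and 56.6 CPM in extravasated and 81.6 and 83.8 CPM in not extravasated libraries, also with no overlap. Its log2 fold change was -0.55 ± 0.13 (edgeR adjusted p = 0.0114), and 0.66 ± 0.15 after correction (adjusted p = 0.0317), so that its direction turned. The uncorrected call of Tial1 was lost without extravasated library 1 (-0.45) or 2 (-0.50).

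Mbnl1 and Mbnl2 encode muscleblind proteins, which promote adult splicing patterns and are sequestered by expanded CUG repeats in myotonic dystrophy. Mbnl1 stood at 23.5 and 42.2 CPM in extravasated and 152.9 and 63.2 CPM in not extravasated libraries. Mbnl2 stood at 38.3 and 54.3 CPM in extravasated and 153.5 and 84.0 CPM in not extravasated libraries. The groups did not overlap, but the SEs were the largest among the 48 members. The log2 fold changes were -1.71 ± 0.49 (edgeR adjusted p = 0.0383) for Mbnl1 and -1.35 ± 0.33 (adjusted p = 0.0242) for Mbnl2, and -0.27 (adjusted p = 0.619) and -0.04 (adjusted p = 0.904) after correction. Without extravasated library 1 or 2 neither was called (Mbnl1 -1.24 and -2.15, Mbnl2 -1.02 and -1.58), and without not extravasated library 1 the values were -0.93 and -0.85.

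Ratios of paralogs within a library do not depend on its total. They are given for 13 pairs of related members, of which 9 did not overlap between groups and 4 did. No share over other pairs of genes is given. With 2 libraries against 2 the smallest two-sided p of an exact permutation test is 0.333, so no pair was tested, and pairs and the order within them were set with the values known. The log2 ratio of Tia1 to Tial1 was -0.92 and -1.03 in extravasated and 0.61 and 0.55 in not extravasated libraries. By CPM, Tial1 was the more abundant of the pair in extravasated cells and Tia1 in the others. Tia1 was chosen for its fall, so this ratio in part restates that fall and is a description only. The principal transcripts of Tia1 and Tial1 have 4477 and 4451 nucleotides and 41.2% and 41.3% GC. Their coding sequences shared 76.2% of aligned bases.

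Hnrnph1 against Hnrnpf, which bind similar G-rich sequence, had log2 ratios of -0.50 and -0.79 in extravasated and 1.09 and 0.77 in not extravasated libraries. These genes differ somewhat in GC content, at 45.4% and 48.98%. Luc7l2 against Luc7l had 0.69 and 0.68 in extravasated and 1.95 and 1.74 in not extravasated libraries, and their GC contents were 46.4% and 47.0%. Srsf3 against Srsf7, at 40.0% GC each, had 0.30 and 0.20 in extravasated and 0.68 and 1.07 in not extravasated libraries. For Clk1 against Clk4 the log2 ratios were 0.98 and 1.55 in extravasated and 1.12 and 1.40 in not extravasated libraries. The kinases thus overlapped as a ratio while both were lower.

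**Figure D4:**
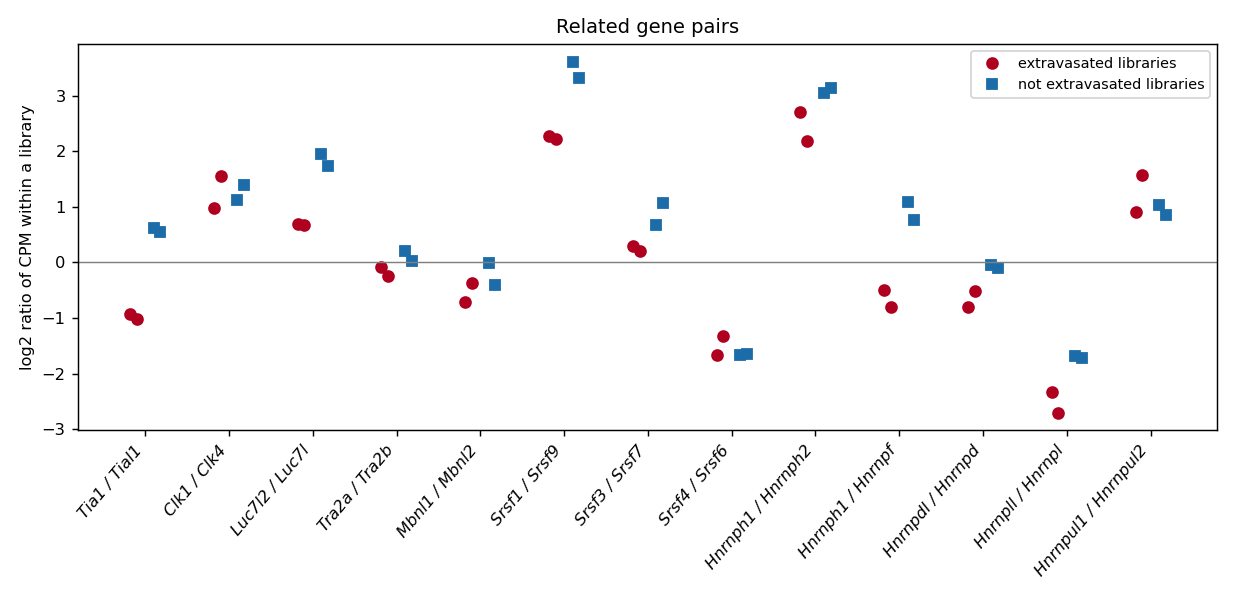
Log2 ratio of CPM of the first to the second gene of 13 related pairs within each library (y axis). Circles are extravasated and squares not extravasated libraries. The ratio of Tia1, which was chosen for its fall, to Tial1 lies at -0.92 and -1.03 in the circles. In the squares it lies at 0.61 and 0.55, and the ratio of Clk1 to Clk4 overlaps.

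Per kilobase of principal transcript, the most abundant members in extravasated cells were Hnrnpab (738.5 CPM per kilobase) and Hnrnpa2b1 (568 CPM per kilobase). In not extravasated cells they were Hnrnpa2b1 (1200.3 CPM per kilobase) and Hnrnpab (532.8 CPM per kilobase), in the opposite order. Neither Hnrnpab nor the corrected value of Hnrnpa2b1 was called. The lowest were Clk4 (4.11 CPM per kilobase) in extravasated and Hnrnpr (11.2 CPM per kilobase) in not extravasated cells. The value of Hnrnpr rests on division by its annotated transcript of 21452 nucleotides. Undivided, Hnrnpr stood at 242.7 and 236.8 CPM in not extravasated libraries, against 45.5 and 29.9 CPM for Clk4.

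Other features of the genes were compared as well. Members had a median of 10 annotated transcripts and 11 exons, against 5 and 9 for all nuclear coding genes. The number of annotated transcripts and the fold change were related by a Spearman rho of -0.492 across the 48 members, and of -0.345 after correction, against -0.035 and -0.059 across all nuclear coding genes. With coding GC content rho was 0.677 before and 0.353 after correction among members, and 0.661 and 0.09 among all genes. These are descriptions over genes of the same libraries. In the 40 members with a RefSeq promoter entry (GRCm38.p6, 250 bases before to 50 after the start), the CCAAT box (CCAAT, either strand) was found in 20 of 40, against 33.1% of 8754 tested genes. It was in 46.2% of the matched members called lower and in 57.1% of the other matched members. The GC box (GGGCGG, either strand) was found in 72.5% of members and 60.6% of tested genes, and the ETS core (CCGGAAG, either strand) in 7.5% and 14.5%. Promoter GC content had a rho of 0.18 with the fold change among members.

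The core spliceosome is given beside the members, since it carries out the splicing that the regulators direct. Counts in each list stand against 19.1% of all genes higher and 25.9% lower, and 8.24% and 5.8% after correction. Of 28 tested genes of the U1 and U2 snRNPs, SF3 complexes and Sm proteins 11 rose and 5 fell (median log2 fold change 0.23), and after correction 6 rose and 0 fell (0.19). Sf3b1, the U2 snRNP subunit that holds the branch site, fell by 1.67 on the log2 scale (edgeR adjusted p = 0.000719) and was not called after correction (-0.38, adjusted p = 0.0707), while Sf3b5 of the same complex rose in both fits (0.96 and 1.68). Of 38 genes of the tri-snRNP, the NTC and the catalytic steps 10 rose and 8 fell (0.13), shares near those of all genes, and after correction 8 rose and 2 fell (0.17). Prpf38b fell in both fits (-1.28 and -0.83), and Dhx15, a helicase that takes spent spliceosomes apart, fell before correction and was not called after it (-1.13, then -0.21).

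Of 42 other sequence-specific regulators 3 rose and 18 fell (median log2 fold change -0.47), and after correction 5 rose and 7 fell (0.04). Srek1, an arginine/serine-rich regulator, and Rbm6 fell in both fits, with -1.82 and -1.45 before and -0.98 and -0.79 after correction. Of 15 kinases, phosphatases and transportins of splicing factors 1 rose and 7 fell (-0.36), and after correction 0 rose and 4 fell (-0.03). Srpk2, a kinase of SR proteins in the cytoplasm, fell with -1.35 and was at 0.04 after correction, and Tnpo1, the import receptor of hnRNP A1, fell with -1.11 and was at 0.44 after correction. Of 18 genes of nonsense-mediated decay and the exon junction complex 4 rose and 4 fell (0.02), again near the shares of all genes, and after correction 3 rose and 3 fell (0.19). Smg1, the kinase of Upf1, and Pnn fell in both fits, with -2.22 and -1.81 before and -0.73 and -0.85 after correction.

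**Figure D5:**
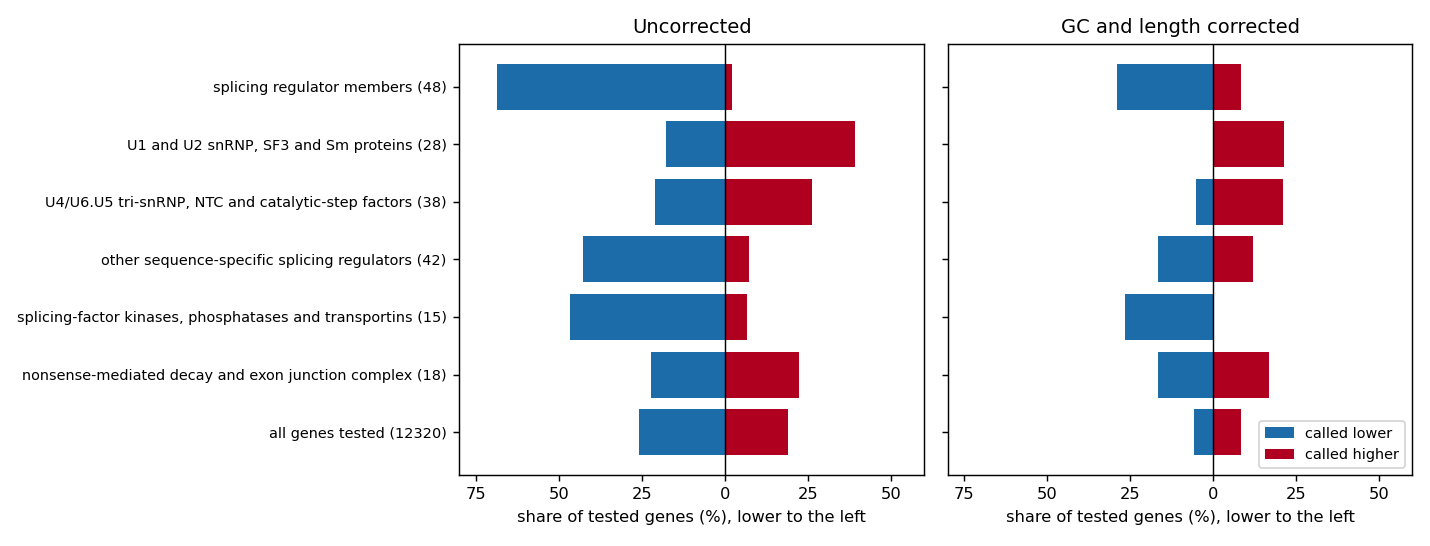
Share of tested genes called lower (bars to the left, %) and higher (bars to the right, %) among the splicing regulators, 5 lists of other splicing genes and all genes tested, without (left) and with (right) the GC and length correction. Numbers in parentheses are genes tested. The bars of the members count Tia1 and Pnisr, which were chosen for their falls: 33 of 48 were lower without correction and 14 of 48 with it. Without Tia1 and Pnisr, 31 of 46 and 12 of 46 were lower.

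Single libraries moved the uncorrected counts. Without extravasated library 1, 27 of 46 members were lower, against 15.1% of all genes, and Luc7l, Mbnl1, Mbnl2 and Tial1 lost their call. Without extravasated library 2, 20 of 46 were lower, against 10.5% of all genes, and Hnrnpa1, Hnrnpdl, Hnrnph3, Hnrnpk, Hnrnpll, Hnrnpu and Srsf5 lost it as well as those 4. Without not extravasated library 1 the count was 34, against 27.3% of all genes, and without library 2 it was 33, against 28.1%. In such fits the lone library is assumed to vary like the other group. Of the 48 members, 13 share exon bases with another gene that passed the count minimum, among them Son, Srrm2, Clk4, Hnrnpm, Hnrnpd and Ptbp1. Their values are uncertain because the strand setting of the counting is not given in the sources used here, and so are those of hnRNP genes with processed pseudogenes.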

How the data were processed

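RNA from 4 libraries, 2 extravasated and 2 not, was measured. The deposited table holds raw counts per gene. STAR 2.5.3a, bcl2fastq 2.18.0.12 and GRCm38 are named per the submitters' processing notes, and the counter, annotation release and strand setting are not given in the sources used here. Groups came from the extravasation field of the labels, and replicate numbers only name libraries. Of 53465 identifiers, 53360 matched GENCODE M21.

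Counts were tested with edgeR 4.0.16 (R 4.3.3): filterByExpr (minimum count 10, minimum total 15), TMM, robust quasi-likelihood test, two-sided, no covariates, Benjamini-Hochberg adjustment over 12320 genes, threshold 0.05. Levels are TMM-scaled CPM. For the correction, log2 CPM minus its 4-library mean was smoothed per library on GC content and log2 length of the APPRIS principal transcript (mgcv 1.9.3, basis size 10) and used as an offset, leaving out mitochondrially encoded genes. Alternatives were RLE factors, unscaled totals, DESeq2 1.42.0, limma-voom (limma 3.58.1), other filters, the title suffix as a term, an adjusted p under 0.01, the longest coding transcript and leaving out each library. Libraries of a group differed by more than sampling noise (chi-square per degree of freedom 16.2 and 27.8), so none was counted as a duplicate. The code was tested on simulated data. Members and lists were chosen with earlier results of these data known. Full values are given for the lowest and highest member of each class and those called the same way in both fits, and for the 4 members higher after correction, chosen after their values were seen. From each other list the 2 genes of smallest adjusted p are named. Coding sequence windows were read from GENCODE and promoters from RefSeq, which held 40 of 48 members.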

Additional observations from a re-analysis of the deposited data

How the results depend on the processing

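Counts of members here include Tia1 and Pnisr. Without correction, 33 members were lower with RLE factors, unscaled totals, DESeq2, no expression filter or a CPM filter. The count was 34 with limma-voom, 36 with the title suffix as a term and 25 at an adjusted p under 0.01. Of 12320 genes tested, 3159 were lower with RLE factors, 3346 with unscaled totals and 2980 with DESeq2, against 3196 without these changes. With limma-voom 3189 were lower, and with the title suffix 3533. Without a filter 3576 of 21049 genes were lower, and with the CPM filter 3173 of 11788. No count over all genes is given at an adjusted p under 0.01. The number of members higher was 2 with DESeq2, 3 without a filter and 3 with the title suffix. Of 12320 genes tested, 2229 were higher with DESeq2 and 2632 with the title suffix, against 2355 without these changes. Without a filter 2575 were higher of a larger set of 21049 genes tested. With the GC and length correction 14 members were lower and 4 higher (median log2 fold change -0.27), and with the longest transcripts 13 and 5 (-0.24). With 1 library left out, 22 to 36 were lower, 1 to 3 higher and the median was -1.04 to -0.76. After correction these ranges were 0 to 19 lower and 0 to 9 higher. With the correction (principal, then longest transcript) these log2 fold changes turned sign: Hnrnpc 0.59 and 0.58, Hnrnpd 1.20 and 1.20, Hnrnpk 0.14 and 0.0802, Hnrnpl -0.14 and -0.18, Hnrnpll 0.17 and 0.0071, Hnrnpr 0.57 and 0.55, Hnrnpu 0.45 and 0.45, Luc7l 0.0770 and 0.0323, Srsf1 0.32 and 0.31, Srsf3 0.21 and 0.18, Srsf4 -0.30 and -0.32, Srsf6 0.99 and 0.96, Srsf7 0.84 and 0.73, Srsf9 -0.35 and -0.37, and Tial1 0.66 and 0.64. Hnrnpa3 turned only with the longest transcript (0.10), and Srsf6 also with RLE factors (0.0089) and DESeq2 (0.0087). Leaving out 1 library turned Hnrnpd (-0.33 to 0.17), Hnrnpul1 (-0.14 to 0.0431), Srrm1 (-0.0889 to 0.0975) and Srsf6 (-0.13 to 0.12), and after correction Hnrnpa0 (-0.30 to 0.32), Hnrnph3 (-0.20 to 0.12), Hnrnpk (-0.0423 to 0.36), Hnrnpul2 (-0.34 to 0.15), Mbnl1 (-0.67 to 0.16), Mbnl2 (-0.257 to 0.186), Srsf3 (-0.0700 to 0.55) and Tra2b (-0.22 to 0.11). The cause was not tested. For the 5 other lists, in the order snRNP, tri-snRNP, other regulators, kinases and decay genes, the numbers higher with the correction were 6, 8, 5, 0 and 3 (6, 7, 6, 0 and 3 with the longest transcripts), and lower 0, 2, 7, 4 and 3 (0, 2, 5, 3 and 3). With 1 library left out, the uncorrected numbers ranged from 3 to 12, 4 to 12, 0 to 5, 0 to 2 and 1 to 4 higher, and from 4 to 6, 6 to 9, 12 to 19, 2 to 8 and 3 to 5 lower. The corrected ones ranged from 0 to 10, 0 to 12, 0 to 9, 0 to 1 and 0 to 6 higher, and from 0 to 1, 0 to 3, 0 to 8, 0 to 5 and 0 to 4 lower, with 0 calls in all 5 lists without extravasated library 2. RLE factors, DESeq2 and no filter each lost the call of Mbnl1 and gained that of Hnrnpf. The labels give no replicate numbers that pair libraries. The kind of title suffix, found once in each group, was run as the additive term above. With 2 libraries a group, small differences cannot be told from the spread, and a p above the threshold does not show that levels were equal.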
